A study of Mus musculus with 6 samples.

Results

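The genes described here are 46 genes of mitosis, the kinetochore and the spindle, taken from a fixed list of names, in the mouse embryonic fibroblast line 10 T1/2. A member was every probe set (a group of short probes against 1 transcript) that the platform annotation assigns to exactly 1 gene, that gene being on the list. This gave 107 probe sets, 77 of 20393 such probe sets on the MOE430A array and 30 of 14674 on the MOE430B array, and all 46 genes of 18194 measured. The study profiled 1 group of 3 samples, numbered 1, 4 and 5, each hybridised to 1 array of both designs. The cells, a multipotent line that muscle, fat, bone and cartilage can be induced from, grew in DMEM with 10% FBS to 80% confluency, and no treatment is labelled. No contrast is labelled and nothing tells whether 3 cultures were grown, so differences between samples may be technical, and no test between groups was possible. The stated use was to find genes shared with stem cells and subtract them from stem cell profiles.

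Entry into mitosis is driven by Cdk1 with its cyclins. Spindle kinases and kinesins then build the bipolar spindle, and kinetochores attach chromosomes to it. A checkpoint holds back the anaphase-promoting complex until every chromosome is attached. Most of these genes are transcribed in G2 and M phase and are kept silent in resting cells, so their messages track the share of dividing cells in a culture. In bulk RNA, fewer dividing cells and less RNA per dividing cell cannot be told apart. Their promoters are known for a cell cycle homology region (CHR), bound by the DREAM complex in resting cells and by B-Myb and FoxM1 complexes in G2, and for CCAAT boxes bound by NF-Y.

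Cdk1, Cdc20 and Cdca8, genes of different roles, were 3.77-fold, 6.85-fold and 6.72-fold lower in sample 1 than the mean of the others. Some members not shown were lower there than Cdk1. Promoters are shown for these 3 genes and for Bub3, whose 2 brightest probe sets differed less between samples than theirs. Each is 250 bases before to 50 after the RefSeq start on GRCm38.p6, given 5′ to 3′ on the gene's strand. Capitals mark the CHR letters TTTGAA or TTCGAA and the box CCAAT, on either strand. Cdk1 lies at chr10:69352863-69353162 (minus strand), Cdc20 at chr4:118437294-118437593 (minus strand), Cdca8 at chr4:124936868-124937167 (minus strand) and Bub3 at chr7:131560120-131560419 (plus strand).
Cdk1: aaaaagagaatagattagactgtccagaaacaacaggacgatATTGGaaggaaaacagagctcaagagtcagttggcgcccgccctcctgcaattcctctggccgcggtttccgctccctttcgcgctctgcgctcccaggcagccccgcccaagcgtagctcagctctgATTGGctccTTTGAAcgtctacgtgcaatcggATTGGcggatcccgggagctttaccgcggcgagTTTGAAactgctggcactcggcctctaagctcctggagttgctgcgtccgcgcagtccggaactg
Cdc20: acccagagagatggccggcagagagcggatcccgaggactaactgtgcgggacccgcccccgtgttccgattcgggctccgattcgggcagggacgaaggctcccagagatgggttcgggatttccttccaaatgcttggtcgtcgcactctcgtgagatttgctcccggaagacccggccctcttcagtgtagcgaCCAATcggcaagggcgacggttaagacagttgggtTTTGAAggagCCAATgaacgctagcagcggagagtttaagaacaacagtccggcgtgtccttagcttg
Cdca8: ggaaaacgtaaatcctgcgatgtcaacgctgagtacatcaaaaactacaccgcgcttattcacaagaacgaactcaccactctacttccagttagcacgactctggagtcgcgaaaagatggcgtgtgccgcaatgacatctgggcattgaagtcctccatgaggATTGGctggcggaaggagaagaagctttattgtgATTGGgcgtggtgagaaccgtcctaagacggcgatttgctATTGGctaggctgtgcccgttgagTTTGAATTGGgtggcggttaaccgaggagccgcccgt
Bub3: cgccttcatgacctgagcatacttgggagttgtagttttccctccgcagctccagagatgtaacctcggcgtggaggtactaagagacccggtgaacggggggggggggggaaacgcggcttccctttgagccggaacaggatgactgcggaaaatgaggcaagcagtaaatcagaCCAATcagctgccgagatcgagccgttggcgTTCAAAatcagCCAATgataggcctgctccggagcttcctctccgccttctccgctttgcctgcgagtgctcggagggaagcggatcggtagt
In Cdc20 the CHR match runs from base -18 to -13 between a pair of CCAAT boxes, and in Cdca8 it runs from 14 to 19 and shares a base with the last of 4 CCAAT boxes. The RefSeq table held a window for 38 of the 46 genes, 41 windows in all. TTTGAA was in 78.0% of these windows, against 17.9% of all 32851 windows of the same length, and TTCGAA was in 9.76%, against 1.56%. CCAAT was in 80.5%, against 37.4%, and a CHR match together with CCAAT in 75.6%, against 7.52%. Other mitosis genes, a list described below, had 103 windows. TTTGAA was in 35.0% of those, TTCGAA in 7.77%, CCAAT in 57.3% and a CHR match together with CCAAT in 26.2%. Base composition was not matched between these sets, and a match is not a shown binding site. By gene, 28 of 38 held both kinds of match. Mad2l1, Pttg1, Birc5, Nuf2 and Ncaph held neither in this window. Of these, Pttg1 was 5.18-fold lower in sample 1, more than Cdk1 was.

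**Figure D1:**
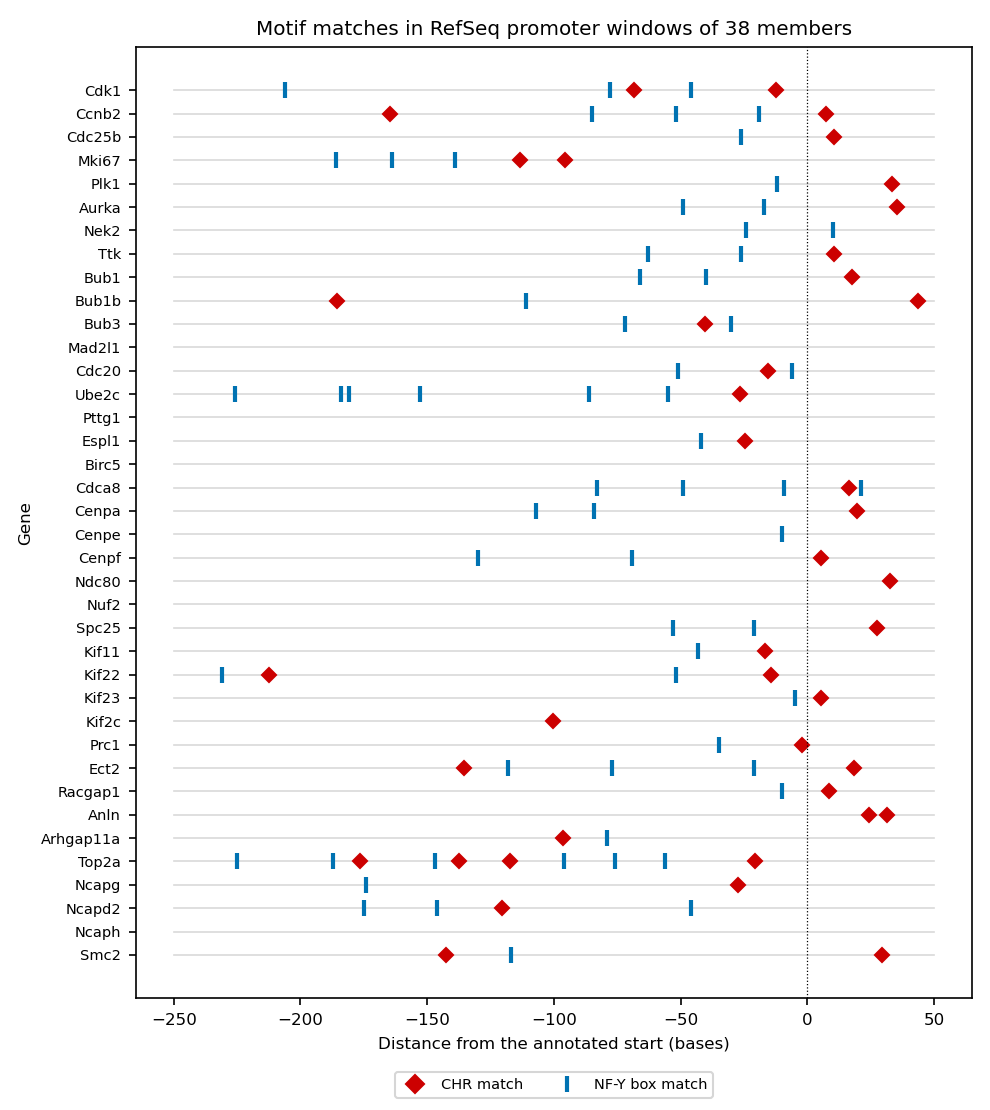
Positions of CHR matches (red diamonds) and NF-Y box matches (blue bars) in the RefSeq promoter windows of 38 members, 1 row per gene, against the distance in bases from the annotated start (dotted line). Of the 38 genes 28 have both kinds of match, and 5 rows (Mad2l1, Pttg1, Birc5, Nuf2 and Ncaph) are empty; where a gene has a second window, the one with the lower genome coordinate is drawn.

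Values are MAS5 signal intensities, in linear arbitrary units that were scaled array by array. As the background limit of an array served the 95th percentile over its probe sets for genes restricted to distant tissues, such as liver, retina and testis. In samples 1, 4 and 5 it was 1358, 1353 and 949 on MOE430A, from 137 probe sets, and 2709, 2182 and 1905 on MOE430B, from 17 probe sets. Of 19 measured fibroblast marker genes 15 were above it on every array. Of the markers of other cells, 1 of 13 leukocyte genes (Cd14), 0 of 10 endothelial genes (Pecam1, Cdh5 and Kdr among them) and 1 of 10 epithelial genes (Epcam, by 1 probe set that can match several transcripts) were.

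Nearly all mitosis genes were above background in samples 4 and 5, while in sample 1 the share was near that of all genes. A probe set above the limit was found for 15 of the 46 genes in sample 1, for 44 in sample 4 and for 45 in sample 5, where 35.2%, 38.4% and 45.0% of all 18194 genes had one. On MOE430A, 13 of the 77 member probe sets (16.9%) were above the limit in sample 1, 49 (63.6%) in sample 4 and 49 in sample 5, against 27.2%, 27.7% and 35.7% of all probe sets naming 1 gene. On MOE430B it was 5, 16 and 14 of 30, against 21.5%, 27.0% and 31.0%. Above it in all 3 samples were 13 of 77, against 22.7%, and 4 of 30, against 17.2%. By gene this was 14 of 46 (30.4%), a share near the 29.5% of all genes. With sample 1 left out it was 44 genes. The 14 were Cdk1, Ccna2, Foxm1, Bub3, Cdc20, Pttg1, Incenp, Cdca8, Tpx2, Kif22, Arhgap11a, Top2a, Ncaph and Smc4. The only gene at or below the limit on every array was Ndc80, a subunit of the kinetochore complex that binds microtubules, with 427, 791 and 693 in samples 1, 4 and 5.

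In the deposited signals, with no filter, sample 1 was the lowest of the 3 in 67 of 77 member probe sets on MOE430A (87.0%), against 31.8% of all probe sets, and in 20 of 30 on MOE430B, against 33.5%. Sample 4 was the highest in 63 of 77 (81.8%), against 31.4%, and in 16 of 30, against 31.7%. By the brightest probe set of each gene, taken from MOE430A where there was one, sample 1 was lowest for 45 of 46 genes and sample 4 highest for 43. The exception at the low end was Foxm1, and Bub1, Ncapg and Smc2 were highest in sample 5.

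**Figure D2:**
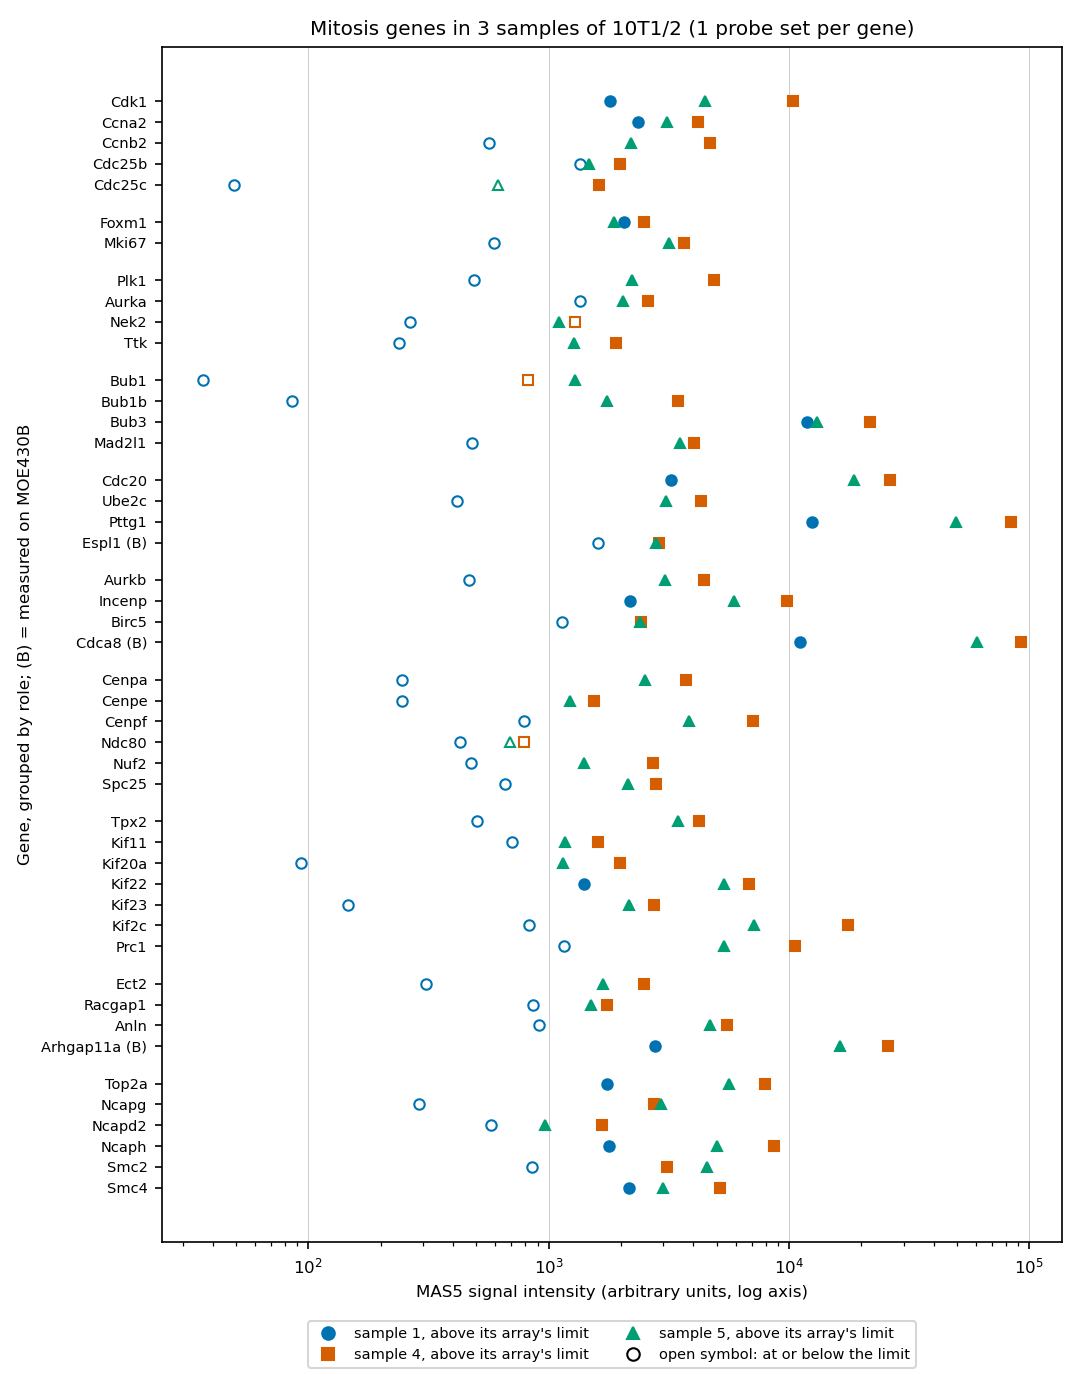
MAS5 signal intensity (log axis) of the 46 genes in samples 1, 4 and 5, by the brightest probe set of each, grouped by role; filled symbols are above the background limit of their array and open symbols are not, and (B) marks genes measured on MOE430B. Most sample 1 symbols are open and lie at the left, while 43 genes have their highest signal in sample 4.

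For sizes, signals below the limit were raised to it, and each sample's log2 signal was set against the mean of the other 2. Probe sets entered when the mean of their raised log2 signals was at least 0.5 above that of the limits, which left 37 member probe sets on MOE430A and 10 on MOE430B. Such a difference sets 1 sample against 2 and has no replicate check. Where a sample on the low side was below the limit, a fold is a lower bound and is given as "at least". On MOE430A the median log2 deviation of members in sample 1 was -1.33, or 2.51-fold lower, with a range of -3.04 to 0.30, while the median of all 4798 entering probe sets was -0.03. Below the mean of the others in sample 1 were 36 of 37 members, against 51.8% of all. Members lower in sample 1 by 2-fold or more numbered 25 of 37, against 7.02% of all entering probe sets, and 0 were higher by as much, against 6.88%. Of the 37, 24 were below the limit in sample 1 and entered through samples 4 and 5, so for these a low sample 1 is partly fixed by the filter and the folds are bounds. Among the 13 above the limit on every array, 8 were lower by 2-fold or more, against 5.57% of such probe sets. With no filter and 64 added to the deposited signals, 52 of 77 were lower in sample 1, against 9.08% of all probe sets, and 49 higher in sample 4, against 6.38%. In sample 4 the median was 1.08, with 21 of 37 higher by 2-fold or more against 2.98%, and 0 lower against 2.4%. Of the 13 above the limit on every array, 9 were, against 2.44%. With sample 1 left out, 6 of 39 entering members were 2-fold higher in sample 4 than in sample 5, against 7.53% of all. In sample 5 the median was 0.32, with 2 higher against 9.67% and 0 lower against 8.88%. Of the 37 probe sets, 9 can match several transcripts.

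MOE430B, hybridised with the same RNA and scaled apart, gave the same order among entering members. Its 10 entering members had median deviations of -2.14, 1.48 and 0.93 in samples 1, 4 and 5, while those of all 2598 entering probe sets were -0.11, 0.05 and 0.07. Over all 30 members with no filter the medians turned to 0.26 in sample 1 and -0.03 in sample 4, where 12 probe sets below the limit on every array carry only the difference between the limits. With 64 added to the deposited signals in place of the limit, 13 of 30 were lower in sample 1 by 2-fold or more, against 13.8%, and 15 higher in sample 4, against 12.4%. All 10 entering members were below the mean of the others in sample 1, against 58.1% of all. Lower in sample 1 by 2-fold or more were 7 of 10, against 5.97%, and higher were 0, against 4.31%. In sample 4, 6 were higher, against 3.46%, and 0 lower, against 3.04%. Of the 10, 6 were below the limit in sample 1 and entered through samples 4 and 5. For these a low sample 1 is partly fixed by the filter. Of the 4 above the limit on every array, 2 were lower in sample 1, against 5.21%, and 2 higher in sample 4, against 2.8%. With sample 1 left out, 1 of 11 entering members was 2-fold higher in sample 4 than in sample 5, near the 6.35% of all, and the median of sample 5 turned to -0.67. In sample 5, 3 were higher, against 7.78%, and 0 lower, against 6.51%. Of the 10, 6 can match several transcripts, and of the other 4, 2 were lower in sample 1 by 2-fold or more. Only 3 genes had entering probe sets on both designs. With sample 1 below the limit, its signal was at least 1.81-fold lower on MOE430A and at least 9.07-fold lower on MOE430B for Bub1b, and at least 2.77-fold and at least 5.37-fold lower for Smc2. For Tpx2 it was at least 2.82-fold lower on MOE430A, while on MOE430B, where sample 1 was above the limit, the log2 deviations were -0.65 and -0.79. The sign was shared in these 3 genes, and since most of the folds are bounds their sizes cannot be set against each other.

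**Figure D3:**
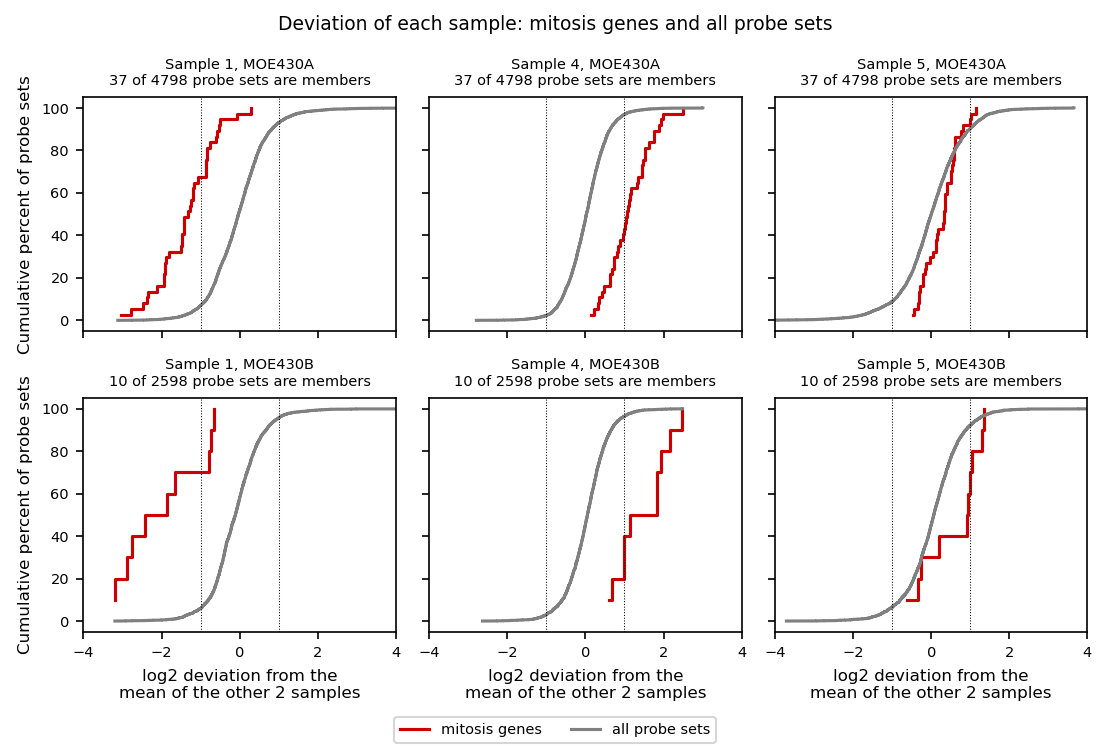
Cumulative percent of probe sets against the log2 deviation of each sample from the mean of the other 2, for members (red) and for all entering probe sets (grey), on MOE430A (top) and MOE430B (bottom); dotted lines mark 2-fold. The red curve lies left of the grey one in sample 1 (medians -1.33 and -2.14), right of it in sample 4 (1.08 and 1.48) and closer to it in sample 5 (0.32 and 0.93).

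Sample 1 also differed in measures of RNA quality. The ratio of the 3' to the 5' control probe set of Gapdh was 24.7, 15.0 and 10.6 in samples 1, 4 and 5 on MOE430A and 23.4, 14.0 and 11.5 on MOE430B. That of beta-actin was 17.5, 9.57 and 8.68 on MOE430A and 20.2, 8.23 and 10.8 on MOE430B. Sample 1 thus had the highest ratio in all 4 comparisons, and the part of this in the low mitosis signals was not tested. Entering probe sets of fibroblast markers on MOE430A had median deviations of 1.08, 0.85 and -1.54 in samples 1, 4 and 5, so that sample 5 stood apart in them. They were higher for 21, 21 and 3 of 26. Those of G1 cyclins and Cdk inhibitors had a median of -0.20 in sample 1. Of them 1 of 16 was lower by 2-fold or more, near the 7.02% of all entering probe sets. The probe sets of the other cells' markers summed to 9825, 9474 and 11297 for leukocytes, 5754, 5347 and 3434 for endothelium and 3125, 2721 and 3273 for epithelium in samples 1, 4 and 5 on MOE430A. The epithelial marker Epcam read 31382, 139544 and 29693 on MOE430B, highest in sample 4 as the mitosis genes were, while its MOE430A probe set was below the limit on every array. Its part in the sample 4 values was not tested.

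Among the genes of mitotic entry, Cdk1, the kinase that starts mitosis, read 1809, 10433 and 4459 in samples 1, 4 and 5. Sample 1 was 3.77-fold below the others and sample 4 was 3.67-fold above them. Ccna2, the cyclin of S phase and G2, read 2361, 4199 and 3104, above the limit everywhere and closer together. Its other probe set read 1337, 4325 and 3029, which put sample 1 at least 2.67-fold lower. Ccnb2, a B-type cyclin partner of Cdk1, read 567, 4695 and 2200.1, at least 2.37-fold lower in sample 1. Of the Cdc25 phosphatases, which remove the inhibitory phosphates from Cdk1, Cdc25b varied little and lay near the limit (1358, 1975 and 1467). Cdc25c read 49.3, 1627 and 618 on MOE430A and 1901, 20134 and 4777 on MOE430B. On both designs sample 4 was the highest, and on MOE430B it was at least 5.60-fold above the others, by a probe set that can match several transcripts.

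Foxm1, the transcription factor that activates many genes of this list in G2, stood apart. Its 1 detected probe set of 4 read 2063, 2485 and 1864, so that the 3 samples lay close together, and the other 3 were below the limit on every array. The proliferation marker Mki67, which coats mitotic chromosomes, read 595, 3678 and 3164. It was below the limit in sample 1 and at similar levels in samples 4 and 5.

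The mitotic kinases were all below the limit in sample 1 on MOE430A. Plk1, which acts in centrosome maturation and mitotic exit, read 490.0, 4873 and 2228, and Aurka, the kinase of spindle poles, 1354, 2588 and 2049.7. Ttk, the kinase that starts checkpoint signalling at kinetochores, read 238, 1901 and 1277. Nek2, a kinase that separates centrosomes, read 266, 1294 and 1101 on MOE430A, and its probe sets did not go together. On MOE430B 1 of them, which can match several transcripts, read 1584, 7938 and 9156, low in sample 1. Another read 3319, 2078 and 1106, high in sample 1. A MOE430B probe set of Aurka, below the limit on every array, read 1419, 627 and 211.

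In the spindle checkpoint, Bub1b, the BubR1 kinase-like protein that restrains Cdc20, had the greatest contrast. It read 85.9, 3446 and 1755 on MOE430A, where the limit allows only at least 1.81-fold, and 408, 27498 and 21944 on MOE430B, at least 9.07-fold lower in sample 1. That MOE430B probe set can match several transcripts. The other probe set of Bub1b on MOE430B read 440, 592 and 698, below the limit on every array. Mad2l1, the Mad2 protein of the same complex, read 482, 4043 and 3529.6, at least 2.78-fold lower in sample 1. Bub1, a kinase that brings checkpoint proteins to kinetochores, read 36.5, 822 and 1293 and passed the limit in sample 5 alone. Bub3, their shared binding partner, had probe sets that differed in order. Its brightest probe set, which can match several transcripts, read 11868, 21728 and 13038, and another read 2249, 2096 and 1593. The dimmer one was the only entering member probe set on MOE430A that lay above the mean of the others in sample 1 (0.30).

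Genes that trigger anaphase showed large differences. Cdc20, the activator of the anaphase-promoting complex, read 3242, 26365 and 18685 by a probe set that can match several transcripts, 6.85-fold lower in sample 1, and 1552, 11160.1 and 5556 by its next probe set, 5.07-fold lower. Pttg1, the securin that inhibits separase, read 12462, 84127 and 49553 by a probe set of that kind, 5.18-fold lower in sample 1. Its other probe sets, which did not enter, read 105, 1784 and 1104, and 133, 879 and 372. The former was below the limit in sample 1 and the latter on every array. Ube2c, the ubiquitin-conjugating enzyme of the complex, read 415, 4303 and 3070.1, at least 2.68-fold lower. In these 3 genes sample 4 was the highest and sample 1 by far the lowest. Espl1, separase itself, was measured on MOE430B alone and read 1611, 2871 and 2799, with samples 4 and 5 just above the limit.

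The 4 genes of the chromosomal passenger complex, which corrects wrong attachments, went the same way by their brightest probe sets. Cdca8 (borealin) read 11142, 92549.9 and 60592 on MOE430B, 6.72-fold lower in sample 1, and 1284, 32145 and 19136 by its next probe set, at least 9.16-fold lower. Both can match several transcripts, and the probe set specific to it read 127, 4161 and 2179.9. Aurkb, the kinase of the complex, read 468, 4421 and 3058, and Incenp, its scaffold, 2183, 9848 and 5907, both by probe sets that can match several transcripts. The other probe sets of Incenp differed in order. On MOE430A they read 116, 844 and 394, and 628, 234 and 196, below the limit on every array. On MOE430B they read 205, 2270 and 175, above the limit in sample 4 alone, and 225, 659 and 146, below it on every array. Birc5 (survivin) read 1136, 2431 and 2410.4. In Birc5 samples 4 and 5 were nearly equal, whereas in the other 3 genes sample 4 exceeded sample 5.

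None of the 6 centromere and kinetochore genes was above the limit in sample 1. Cenpa, the histone H3 variant of centromeres, read 247, 3731 and 2515, and Cenpf, a kinetochore protein made in G2, 793, 7065 and 3854. Cenpe, a kinesin that moves chromosomes to the metaphase plate, read 245, 1546 and 1225 on MOE430A and 612, 6028 and 3357 on MOE430B. Other probe sets of Cenpa and Cenpf, below the limit on every array, differed in order. By the probe sets given here, sample 4 was highest and sample 1 lowest in each of Cenpa, Cenpf and Cenpe. The Ndc80 complex subunits Nuf2 (474, 2722 and 1401) and Spc25 (661, 2807 and 2136) had that order too.

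Among spindle genes, Kif2c, a kinesin that takes microtubules apart, had the greatest difference on MOE430A. It read 829, 17583 and 7136, at least 8.25-fold lower in sample 1 and at least 5.65-fold higher in sample 4. This came from 1 of 4 probe sets, which can match several transcripts, and the other 3 were below the limit on every array. Prc1, which bundles the microtubules of the central spindle, read 1155, 10653 and 5360.3, and Kif22, a chromosome-arm kinesin, 1398, 6817 and 5393. Both of these probe sets can match several transcripts, and the others of Kif22 were below the limit on every array. Tpx2, the activator of Aurka, read 503, 4236 and 3472, and Kif23, the kinesin of centralspindlin, 146, 2739 and 2171. Kif11, the motor that pushes spindle poles apart (703, 1612 and 1166), and Kif20a, a kinesin of cytokinesis (93.3, 1983 and 1151), exceeded the limit little in samples 4 and 5. By their brightest probe sets, all 7 spindle genes were lowest in sample 1 and highest in sample 4.

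Of the genes of the cleavage furrow, Arhgap11a, which inactivates RhoA, read 2766, 25952 and 16367 on MOE430B, 7.45-fold lower in sample 1. Anln (anillin), the scaffold of the contractile ring, read 912, 5552 and 4696, at least 3.76-fold lower. Ect2, the exchange factor that activates RhoA, read 310.1, 2500.3 and 1679. Racgap1, the centralspindlin partner of Kif23, read 862, 1750.3 and 1497 and stayed near the limit. The order of samples was the same in all 4.

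The chromosome condensation genes were also low in sample 1, but here samples 4 and 5 changed places by gene. Top2a, the topoisomerase that disentangles sister chromatids, read 1748, 7948 and 5639. The condensin subunit Ncaph read 1779, 8636 and 5009 by a probe set that can match several transcripts. Smc2, a core ATPase of condensin, read 852, 3099.9 and 4548 on MOE430A and 2398, 13993 and 15097 on MOE430B, so that sample 5 was the highest on both. Of further condensin subunits, Ncapg read 290.2, 2751 and 2935 and Ncapd2 577, 1667 and 969.9. Smc4, the partner of Smc2, read 2158, 5176 and 2987 by its brightest probe set and 699.6, 2610.3 and 3739 by another, which disagree on which of samples 4 and 5 is higher.

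Samples 4 and 5, set against each other without sample 1, differed less. The 37 entering MOE430A members were higher in sample 4 than in sample 5 by a median of 0.51 on the log2 scale (1.43-fold), with 34 higher and 3 lower, and a range of -0.55 to 1.30. The median over all entering probe sets was 0.03, and their share higher in sample 4 was not counted. The filter by which probe sets entered used sample 1 too. On MOE430B the median of members was 0.64, against 0.0 over all, with 8 of 10 higher in sample 4. Other mitosis genes, a list described below, were shifted the same way. Their median was 0.37 on MOE430A (40 higher, 14 lower) and 0.36 on MOE430B (23 higher, 7 lower). The MOE430A members with the largest ratio of deposited signals of sample 4 to sample 5 by brightest entering probe set were Kif2c (2.46), Cdk1 (2.34), Plk1 (2.19) and Ccnb2 (2.13). The largest ratio on MOE430B was that of Cdc25c (4.21), by a probe set that can match several transcripts. Genes of DNA replication, which belong to S phase, were not shifted this way. Their 19 entering probe sets had a median of -0.20, with 12 lower in sample 4 than in sample 5, among them Pcna, the sliding clamp, at 9244 in sample 4 and 16979 in sample 5. In sample 1 all 19 were lower than the mean of the others, against 51.8% of all entering probe sets. Their median there was -1.05, with Pcna at 3033. Only 9 of the replication probe sets were above the limit in all 3 samples. The others entered through samples 4 and 5, so for these a low sample 1 is partly fixed by the filter. The difference between these lists was not tested.

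**Figure D4:**
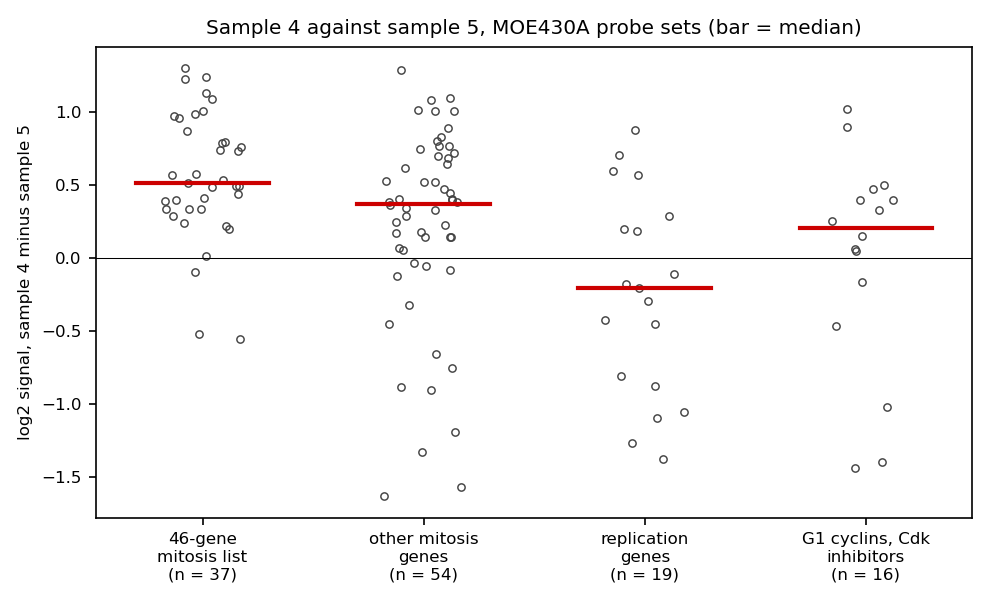
Log2 signal of sample 4 minus sample 5 for entering MOE430A probe sets (circles) of the 46-gene mitosis list, other mitosis genes, replication genes, and G1 cyclin and Cdk inhibitor genes; red bars are medians. The mitosis list has a median of 0.51, the other mitosis genes one of 0.37 and the replication genes one of -0.20.

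A further list of 107 genes of mitosis outside the 46, such as cohesin, anaphase-promoting complex and outer kinetochore genes, was mostly lower in sample 1 too. Of its entering probe sets 49 of 54 on MOE430A and 28 of 30 on MOE430B were below the mean of the others there. Of all entering probe sets it was 51.8% and 58.1%. Only 38 and 14 probe sets of the list were above the limit in all 3 samples. Most of the other entering ones passed the filter through samples 4 and 5, so for these a low sample 1 is partly fixed by the filter. Of 104 measured, 61 had an entering probe set, and 16 of these had one at least 2-fold lower in sample 1, while 0 had one as much higher. On MOE430A this was 12 of 54 probe sets, against 7.02% of all, with a median of -0.61. The difference from the 46 genes was not tested. Those with the widest range were Cks2, a Cdk1-binding subunit (2231, 25304 and 14880 in samples 1, 4 and 5), Hmmr, a spindle-assembly protein (882, 11472 and 4696), and Cdca5, the cohesin-protecting sororin (789.7, 7644 and 6934). Zwint, an outer kinetochore protein, read 3253, 5957 and 17677, highest in sample 5. Spc24, a subunit of the Ndc80 complex, read 1589, 9512 and 1918 on MOE430B, high in sample 4 alone. Of 23 measured genes of meiosis, 0 were above the limit on every array.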

How the data were processed

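RNA of 3 samples of 10 T1/2 was prepared with RNeasy, per the labels, and hybridised to 6 arrays, MOE430A and MOE430B. The authors deposited 1 linear signal intensity per probe set and array, made with MAS5 per the submitters' processing notes. The version of MAS5 is not given in the sources here. The mean after trimming 2% at each end was 1501 on every MOE430A array and 1500.2 to 1500.3 on MOE430B. The deposited run settings held no expression values and were not used. The tables carry no detection calls, and the number of arrays limits the precision.

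Each design was analysed alone. Genes came from the platform annotation, updated by gene ID to RefSeq symbols (GRCm38.p6). On MOE430A 20393 probe sets named 1 gene, 691 several and 1606 none, and on MOE430B 14674, 245 and 7656. The background list had 112 genes, 105 of them measured. Since the series is 1 group, no test was run, and counts are set beside the same count over all probe sets. All 46 members are named, by the probe set of highest mean log2 signal, on MOE430A where possible, and of each other list at most 5 with the widest range. Members, lists and settings were chosen with earlier results of these data known, so the low mitosis signal of sample 1 is no independent finding. The calculation was tested on simulated data. There, changes were put only into bright probe sets, with less spread between samples than the members had, so dimmer members were not covered. Alternatives were the limit, the filter, normalisation, probe set choice and leaving out a sample. Python 3.11.15, numpy 2.4.6 and pandas 2.3.3 were used. Every sample's value column was used, leaving 0 out.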

Additional observations from a re-analysis of the deposited data

How the results depend on the processing

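No paired analysis was possible because no result came from a test, and the groups that share sample numbers are 2 array designs of the same RNA. With detection on 2 of 3 arrays, 44 genes, 46 MOE430A probe sets and 13 MOE430B probe sets were above background, against 14, 13 and 4 on 3 of 3. Without probe sets ending in _s_at or _x_at these were 9, 7 and 2, and 13 MOE430A probe sets were 2-fold higher in sample 4, 2 on MOE430B, and 2 on MOE430B 2-fold lower in sample 1, where 6 of 10 entering probe sets have such names. Asking for 50% of a gene's probe sets left 6 genes. With no filter, the median deviation in sample 1 was -0.15 on MOE430A and turned to 0.26 on MOE430B, where that of sample 4 turned to -0.03. By construction, 25 and 12 member probe sets that are below the limit on every array then carry only the difference between the limits. On the deposited signals with no filter and a pseudocount of 64, chosen after seeing the data, the medians in sample 1 were -1.85 and -0.79. In that setting 52 MOE430A and 13 MOE430B probe sets were 2-fold lower in sample 1, and 49 and 15 higher in sample 4. Only over probe sets above the limit on every array, also chosen after seeing the data, 8 and 2 were lower in sample 1 and 9 and 2 higher in sample 4, of 13 and 4. With the pseudocount and the filter, the sample 1 median on MOE430A was -2.30.

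Leaving out a sample moved the genes above background between 14 and 44, and the probe sets between 13 and 46 and between 4 and 13, the higher values without sample 1. The sample 1 median ranged from -1.67 to -1.20 on MOE430A and from -2.63 to -2.44 on MOE430B, with 21 to 29 and 6 to 9 probe sets 2-fold lower. That of sample 4 ranged from 0.50 to 1.67 and from 0.67 to 2.63, with 6 to 29 and 1 to 9 probe sets 2-fold higher, the lower values without sample 1. That of sample 5 ranged from -0.50 to 1.20 and from -0.67 to 2.44. For Cdc20, 1.02 in sample 5 became -0.50 without sample 1 and 2.53 without sample 4. The other alternatives, the 90th and 99th percentile limits, quantile normalisation and 1 probe set per gene, changed none of these counts by over 1.5 times. They changed none of these medians by more than the spread between samples. This spread was the median standard deviation of the entering members' log2 signals, 0.858 on MOE430A and 1.446 on MOE430B. It includes the difference of sample 1 itself, so it is a wide margin.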
